A study of Canis lupus familiaris with 11 samples.

Results

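The 8 genes described here are the mast cell genes KIT, FCER1A, MS4A2, CPA3, HDC, CMA1, GATA2 and HPGDS, out of 15947 genes named on the arrays. Each was matched by its exact symbol to 1 of 32391 array features, so no choice between features arose. They were measured in canine stromal vascular fraction (SVF), the pellet of stromal, vascular and immune cells left when fat is digested, on 11 Affymetrix arrays of biotin-labelled RNA. Of these, 8 arrays came from visceral fat of dogs 2 and 3, digested by 1 company. In each dog, 2 arrays held untreated SVF without incubation and 2 held SVF given photo-activated platelet-rich plasma (PRP) and then kept for 6 h at 37 °C. The remaining 3 arrays held untreated SVF from visceral fat of another dog, a neutered male Labrador aged 6 years. Portions of about 20 g of that fat went to companies A, B and C, and each company's cells, stored frozen for about 1 month, gave 1 array after thawing. Dogs 2 and 3 are separate in the titles but carry the same description, a neutered male German Shepard mix aged 10 years. PRP never came without incubation, and each digest followed a proprietary method.

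Mast cells are tissue-resident immune cells that develop under the growth factor receptor KIT and lie along blood vessels in fat and other connective tissue. Antigen bound by IgE on their high-affinity IgE receptor makes them release stored histamine and proteases and newly made prostaglandins. FCER1A encodes the IgE-binding chain of that receptor and MS4A2 its beta chain. CPA3 (carboxypeptidase A3) and CMA1 (chymase) are granule proteases, HDC makes histamine, HPGDS makes prostaglandin D2, and GATA2 is a transcription factor of the lineage. Several are not restricted to mast cells. GATA2 is also a factor of endothelial and progenitor cells, KIT is carried by progenitors, melanocytes and interstitial cells of Cajal, and HPGDS by some macrophages and lymphocytes. The tryptases, which mark mast cells most strongly in humans, were sought by symbol. No array feature named any of them alone under the symbols used, so they were not measured here.

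Values are log2 expression levels. Array medians ran from 6.76 to 6.85 in dogs 2 and 3 and from 5.14 to 5.31 in the company arrays, so levels were compared within each of these sets and not between them. On every array of dog 2 at least 6 of the 8 genes lay above the array median, and on the arrays of dog 3 between 4 and 6 did. The stromal gene DCN, which encodes decorin, stood between 13.32 and 13.66 on the 8 arrays, and the macrophage, endothelial and pan-leukocyte lists were also well above the medians. Because RNA came from the whole fraction, fewer cells of a type and less RNA per cell cannot be told apart. The 2 arrays per dog and condition are not said to be separate preparations, so each p-value reflects only how far these samples scatter, and that scatter may be technical. The small number of arrays sets the precision.

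PRP with incubation was first set against untreated SVF. None of the 8 mast cell genes passed adjusted p 0.05 over both dogs (limma, 0 of 8, against 0.00617% of all features). Before adjustment 1 of 8, FCER1A, had a p below 0.05, as did 9.45% of features. Their differences ran from -0.054 for HPGDS to 0.35 ± 0.15 (SE) for FCER1A, with a median of 0.22 beside -0.031 over all features. Without dog 2 SVF replicate 1 the FCER1A value was 0.22. Means were higher in 7 of 8 genes, as they were in 44.3% of features.

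The IgE receptor chains show how the dogs contributed. FCER1A stood at 7.68 and 8.19 in untreated SVF of dog 2 and at 8.52 and 8.68 after PRP. In dog 3 it stood at 7.17 and 7.15 in SVF and at 7.20 and 7.18 after PRP. The PRP arrays of dog 2 thus lay above its SVF arrays by far more than in dog 3, where all 4 values fell within a narrow band. The fitted difference was 0.66 ± 0.21 in dog 2 and 0.029 ± 0.21 in dog 3 (SE, limma, adjusted p = 0.991 and 0.981). MS4A2 was at 7.43 and 7.52 in SVF of dog 2 and at 8.11 and 8.05 after PRP. In dog 3 it was at 7.25 and 6.84 in SVF and at 7.05 and 6.59 after PRP, and those groups overlapped. Its difference was 0.60 ± 0.22 in dog 2 and -0.23 ± 0.22 in dog 3, and neither passed (adjusted p = 0.991 and 0.863). A test of whether the dogs differed in this response gave 0.83 ± 0.32 for MS4A2 and 0.64 ± 0.29 for FCER1A (SE, limma, adjusted p = 1 for each), so a different response of the dogs was not shown. Same-numbered arrays are not shown to be pairs. Taken by number, MS4A2 was higher after PRP for both numbers in dog 2 (0.68 and 0.53) and lower for both in dog 3 (-0.21 and -0.25). HPGDS had the same signs, with 0.94 and 0.24 in dog 2 and -0.62 and -0.77 in dog 3, and its test of the dogs' difference gave 1.28 ± 0.83 (SE, limma, adjusted p = 1). With single arrays left out the FCER1A value in dog 2 ran from 0.41, without dog 2 SVF replicate 1, to 0.92, and its difference between the dogs from 0.38 to 0.89. For HPGDS the same ranges were 0.21, without dog 2 PRP replicate 1, to 0.96, and 0.52 to 2.05. Over the 8 members this test called 0 (0% of features), with 1 below an unadjusted 0.05 (1.91% of features), and all 8 values were above 0 (57.2% of features). Without dog 3 PRP replicate 2 the MS4A2 difference in dog 3 was 0.00052.

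KIT, the receptor for stem cell factor, stood at 9.32 and 9.31 in SVF of dog 2 and at 9.76 and 9.54 after PRP. In dog 3 it was at 8.39 and 8.12 in SVF and at 8.28 and 8.70 after PRP. The groups parted in dog 2 and overlapped in dog 3, and over both dogs the difference was 0.29 ± 0.15 (SE, limma, adjusted p = 0.572). Without dog 3 PRP replicate 2 it was 0.18.

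Among the proteases, CPA3 was at 10.32 and 10.87 in SVF of dog 2 and at 11.06 and 11.02 after PRP. In dog 3 it was at 8.68 and 9.19 in SVF and at 9.18 and 8.90 after PRP. CMA1 was at 7.28 and 7.82 in SVF of dog 2 and at 7.99 and 7.93 after PRP. In dog 3 it was at 6.13 and 6.32 in SVF and at 6.27 and 6.32 after PRP. In dog 2 the SVF and PRP arrays did not overlap for either protease, while in dog 3 the groups overlapped. Over both dogs CPA3 differed by 0.28 ± 0.18 and CMA1 by 0.24 ± 0.15 (SE, limma, adjusted p = 0.646 and 0.633). With single arrays left out these values ran from 0.14 to 0.42 for CPA3 and from 0.11 to 0.38 for CMA1, both lowest without dog 2 SVF replicate 1.

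Of the enzymes that make mediators, HDC was at 6.44 and 6.56 in SVF of dog 2 and at 6.88 and 6.54 after PRP, and at 6.00 and 5.86 in SVF of dog 3 and 5.99 and 6.23 after PRP. Its SVF and PRP arrays overlapped in both dogs. HPGDS moved in opposite directions in the dogs without passing, by 0.59 ± 0.59 in dog 2 and -0.70 ± 0.59 in dog 3 (SE, limma, adjusted p = 0.991 and 0.842). In dog 3 its SVF and PRP arrays overlapped. The transcription factor GATA2 showed almost no difference, 0.012 ± 0.16 over both dogs with a 95% confidence interval from -0.37 to 0.40. With single arrays left out in turn, the GATA2 difference lay between -0.093 and 0.12, and that of HPGDS between -0.44 and 0.33.

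Within dog 2 alone 0 of 8 genes passed (0% of features), 2 of 8, FCER1A and MS4A2, had an unadjusted p below 0.05 (4.39% of features), and 8 of 8 were above 0 (49.5% of features), with a median of 0.43. Within dog 3 alone 0 of 8 passed (0% of features), 0 of 8 had an unadjusted p below 0.05 (6.1% of features), and 5 of 8 were above 0 (41.5% of features), with a median of 0.052. Counted by separation, the lower PRP array exceeded the higher SVF array in dog 2 for 6 of the 8 genes (KIT, FCER1A, MS4A2, CPA3, CMA1 and HPGDS), against 17.5% of all features. In dog 3 this held for 1 of 8, FCER1A, against 10.6% of features. T cell and pan-leukocyte lists stood higher after PRP as well by their medians over both dogs, 0.41 and 0.38, with 0 genes called. Of 8 T cell genes 8 were above 0 and of 6 pan-leukocyte genes 4, against 44.3% of features. Macrophage and dendritic cell medians were 0.19 and 0.16, and the endothelial median was -0.30. The part of these cells in the mast cell values was not tested.

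**Figure D1:**
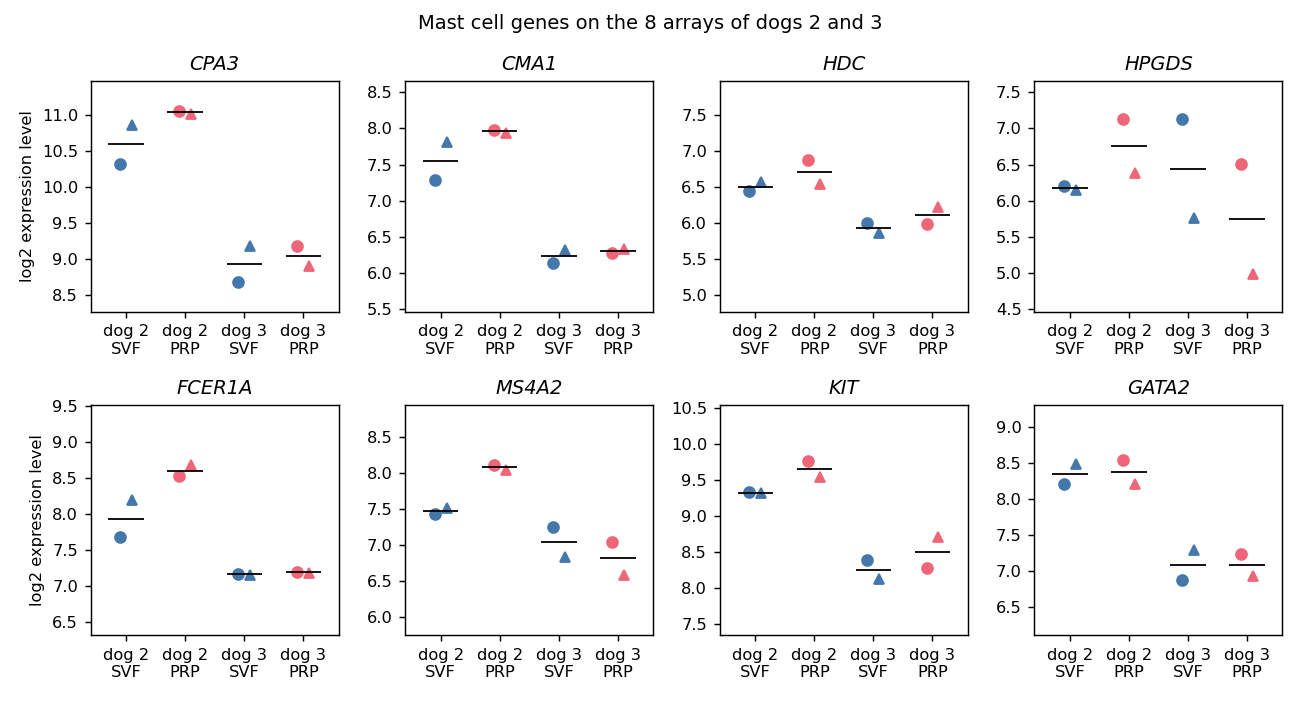
Log2 expression level (vertical axis, 3.2 units in every panel) of the 8 genes on the 8 arrays of dogs 2 and 3. Circles are replicate 1, triangles replicate 2 and bars the means of 2 arrays. For every gene but HPGDS the 4 arrays of dog 2 lie above the 4 arrays of dog 3.

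**Figure D2:**
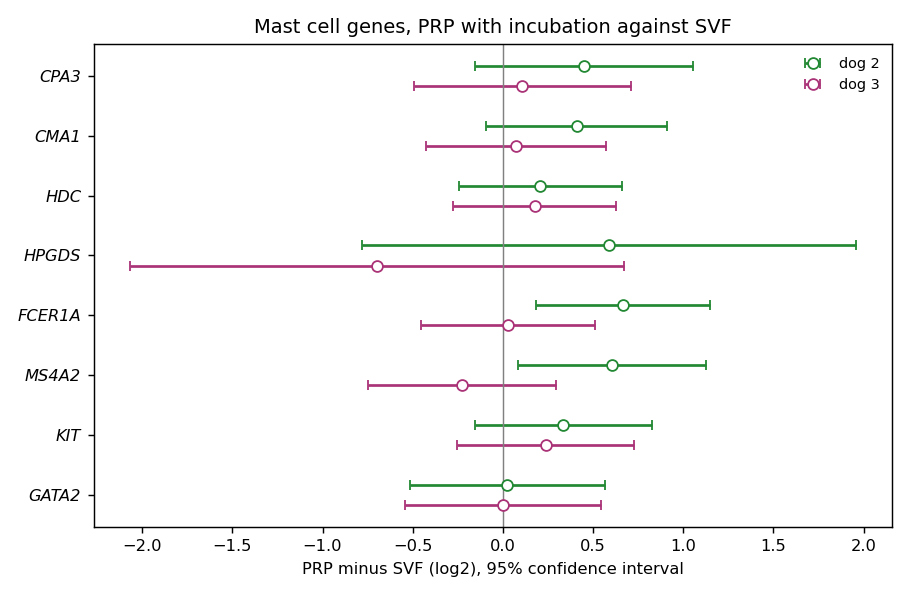
Difference between PRP with incubation and untreated SVF (log2, points) with 95% confidence intervals for each dog, fitted with limma over 8 arrays. All points are open because no adjusted p was below 0.05, and most intervals include 0.

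The clearest pattern in these genes was a difference between the dogs. For 7 of the 8 genes all 4 arrays of dog 2 lay above all 4 arrays of dog 3, against 6.17% of all features, and the exception was HPGDS. In untreated SVF, 2 of 8 genes passed adjusted p 0.05 as higher in dog 2 (CPA3 and CMA1), against 0.568% of features called in that direction and 1.28% in either. After PRP with incubation 6 of 8 passed as higher in dog 2, against 1.11% of features in that direction and 1.92% in either, and HDC and HPGDS did not pass. Dog, fat sample and digest coincide in this design and cannot be told apart.

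CPA3 showed the widest gap among the 8. In untreated SVF its mean was 10.59 ± 0.39 in dog 2 and 8.94 ± 0.36 in dog 3 (SD, n = 2). The difference was 1.66 ± 0.26, or 3.15-fold (SE, limma, adjusted p = 0.0343). After PRP it was 2.00 ± 0.26 (adjusted p = 0.016), with means of 11.04 ± 0.028 and 9.04 ± 0.20 (SD, n = 2). The gap between the dogs was thus several times the spread between the 2 arrays of a group. CMA1, the chymase, was higher by 1.33 ± 0.21 in untreated SVF and by 1.66 ± 0.21 after PRP (SE, limma, adjusted p = 0.0385 and 0.016). Its levels in dog 3 lay below the array medians, and signal over background was not measured.

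For the receptors, KIT ran from 9.31 to 9.76 in dog 2 and from 8.12 to 8.70 in dog 3. The difference was 1.06 ± 0.21 in untreated SVF, which missed the threshold, and 1.16 ± 0.21 after PRP, which passed (SE, limma, adjusted p = 0.0685 and 0.0434). FCER1A differed by 0.77 ± 0.21 in untreated SVF and by 1.41 ± 0.21 after PRP (adjusted p = 0.148 and 0.0231). MS4A2 differed by 0.43 ± 0.22 and by 1.26 ± 0.22 (adjusted p = 0.557 and 0.0398). Both receptor chains therefore passed after PRP and not before it. As given above, the test of that change itself did not pass for either chain.

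GATA2 was at 8.22 and 8.49 in untreated SVF of dog 2 and at 8.54 and 8.21 after PRP. In dog 3 it was at 6.88 and 7.30 and, after PRP, at 7.24 and 6.94. The gap of 1.26 ± 0.23 in SVF just missed the threshold and the gap of 1.29 ± 0.23 after PRP passed (SE, limma, adjusted p = 0.0558 and 0.0424). With quantile normalization over the 8 arrays the gap in SVF passed and the gap after PRP no longer did (adjusted p = 0.0504 for the latter). HDC was higher in dog 2 by 0.57 ± 0.19 and 0.60 ± 0.19 without passing (adjusted p = 0.274 and 0.239). HPGDS differed by -0.27 ± 0.59 and 1.02 ± 0.59 (adjusted p = 0.957 and 0.614), with wide 95% confidence intervals from -1.64 to 1.10 and from -0.35 to 2.39.

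**Figure D3:**
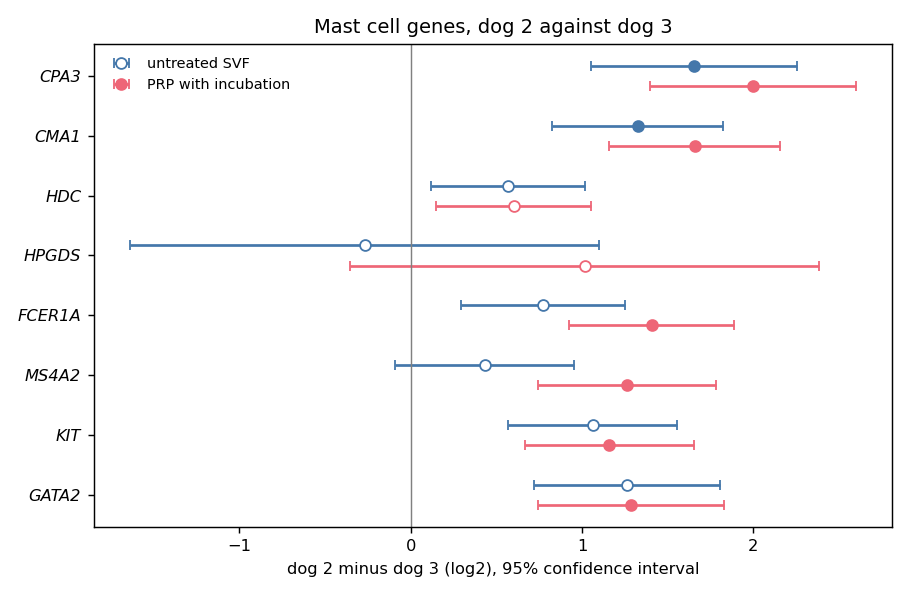
Difference between dog 2 and dog 3 (log2, points) with 95% confidence intervals in untreated SVF and after PRP with incubation. Filled points passed adjusted p 0.05 in limma over all features, which were CPA3 and CMA1 in SVF and 6 genes after PRP.

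These calls rest on few arrays. In untreated SVF 0 members passed without any one of the 4 arrays of dog 2 or of the 2 SVF arrays of dog 3, and 1, CPA3, passed without either PRP array of dog 3. After PRP 0 passed without dog 2 PRP replicate 1, dog 2 PRP replicate 2 or dog 3 PRP replicate 2, and 3 passed without any other single array. Calls over all features fell in the same fits, from 1.28% to between 0.0185% and 0.0587% without a single SVF array and 0.466% without either PRP array of dog 2, and from 1.92% to 0.0247%, 0.00926% and 0.0679% without the 3 PRP arrays just named. The sizes moved less: the median over the 8 genes stayed between 0.79 and 1.04 in SVF and between 1.18 and 1.47 after PRP. With dog and condition as additive terms over all 8 arrays, 7 of 8 passed as higher in dog 2, against 3.44% of features in that direction and 7.33% in either, and HPGDS did not (limma, adjusted p = 0.758). Among those 7 the gaps ran from 0.59 ± 0.12 for HDC to 1.83 ± 0.18 for CPA3 (SE, adjusted p = 0.025 and 0.000879), and that of HPGDS was 0.37 ± 0.45.

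The pan-leukocyte, macrophage, dendritic cell, T cell and adipose stroma lists did not follow this order. Of 6 pan-leukocyte genes all had lower means in dog 2 in untreated SVF (median -0.63, 0 called), as did all 6 macrophage genes (median -0.58, 0 called) and all 6 dendritic cell genes (median -0.79, 0 called). Of 8 T cell genes 3 were above 0 and 5 below (median -0.093). All 8 adipose stroma genes had lower means in dog 2 in SVF (median -0.23). Of these 1, PI16, was called, against 1.28% of features in either direction. PI16 differed by -1.81 ± 0.17 in SVF and by -1.96 after PRP (SE, limma, adjusted p = 0.00876 and 0.00807). The endothelial list did follow the order of the mast cell genes. All 8 of its genes had higher means in dog 2, with medians of 1.44 in SVF and 1.70 after PRP, and 5 and 8 of them were called. KDR and VWF, the vascular endothelial growth factor receptor and von Willebrand factor, were higher in dog 2 by 1.63 ± 0.19 and 1.95 ± 0.24 in SVF (SE, limma, adjusted p = 0.0157 and 0.0177). ESAM, an endothelial junction protein, was higher by 1.57 ± 0.23 (adjusted p = 0.0273). Without any one of the 4 SVF arrays none of these 3 passed, at sizes between 1.49 and 2.04, and ESAM also missed without either PRP array of dog 2. Mean levels of the endothelial list were between 10.57 and 10.87 on the arrays of dog 2 and between 8.70 and 9.39 on those of dog 3. The part of endothelial cells in the gap of the mast cell genes was not tested. Melanocyte genes lay below the lower quartile of every array on average, between 4.42 and 4.75. Of 3 measured genes of interstitial cells of Cajal 2 were above 0 in SVF and 2 after PRP, with medians of 0.35 and 0.76 and 0 called. Among these ANO1, a chloride channel of those cells, differed by 0.71 ± 0.24 and by 1.13 (SE, limma, adjusted p = 0.277 and 0.0721). The 3 measured basophil and eosinophil genes were above 0 in SVF (median 0.26, 0 called), at mean levels between 4.47 and 5.21, and 2 of 6 progenitor and megakaryocyte genes were (median -0.10, 0 called). The part of these cells in the KIT gap and in those of the other members was not tested.

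The genes around mast cells were taken from lists of mast cell and mediator genes. KITLG, which encodes the KIT ligand stem cell factor, was at 10.00 and 10.09 in SVF of dog 2 and at 8.78 and 8.72 in dog 3. The arrays did not overlap, and the difference of 1.30 ± 0.31 did not pass (SE, limma, adjusted p = 0.116). The ligand and its receptor were thus both on the higher side in dog 2. IL33, an alarmin that acts on mast cells, and IL4R, the interleukin-4 receptor, lay the other way, at -1.17 ± 0.24 and -0.92 ± 0.18 (SE, limma, adjusted p = 0.0749 and 0.0723). Of 19 measured genes of growth, recruitment and lineage 7 were above 0 and 12 below (median -0.11, 0 called).

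Signalling genes below the IgE receptor were not higher in dog 2 on balance. FCER1G, the gamma chain that the IgE receptor shares with other Fc receptors, was at 9.71 and 9.10 in SVF of dog 2 and at 10.28 and 9.76 in dog 3. It was thus on the lower side in dog 2, at -0.62 ± 0.29 (SE, limma, adjusted p = 0.482), opposite to FCER1A and MS4A2, and it was singled out after its values were seen. Of 18 signalling genes 6 were above 0 and 12 below in SVF (median -0.34, 0 called). GRAP2, an adaptor of immune receptor signalling, and PLCG1, a phospholipase, were on the higher side in dog 2, at 0.87 ± 0.18 and 0.44 ± 0.16 (adjusted p = 0.0797 and 0.322).

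Receptors and handlers of the mediators were mixed. HRH4, the histamine receptor of immune cells, differed by 0.79 ± 0.18 and HRH1, that of smooth muscle and endothelium, by -1.09 ± 0.29 (SE, limma, adjusted p = 0.0978 and 0.144). HRH4 was at 5.09 and 5.35 in SVF of dog 2 and at 4.37 and 4.48 in dog 3. These levels lay below the array medians, and signal over background was not measured. Of 8 histamine genes 4 lay on each side and 0 were called. PTGDR, a prostaglandin D2 receptor, was at 6.82 and 6.18 in SVF of dog 2 and at 8.03 and 7.87 in dog 3. The gap of -1.45 ± 0.28 did not pass in SVF and that of -1.67 after PRP did (adjusted p = 0.0672 and 0.0353). PTGS2, the inducible cyclooxygenase upstream of HPGDS, was also on the lower side in dog 2, at -1.81 ± 0.36 (adjusted p = 0.072). HPGD, which breaks down prostaglandins, was on the higher side, at 0.68 ± 0.19 in SVF and 1.07 after PRP, and passed in the second (adjusted p = 0.176 and 0.0424). Of 14 other mast cell genes 8 were above 0 and 6 below in SVF (median 0.094, 0 called). In the additive model over all 8 arrays 3.44% of all features passed as higher in dog 2 and 7.33% in either direction. KITLG at 1.20, HRH4 at 0.84 and HPGD at 0.88 passed as higher (limma, adjusted p = 0.0104, 0.00375 and 0.0074). So did GRAP2 at 0.74 and PLCG1 at 0.42 (adjusted p = 0.00854 and 0.042). IL33 at -1.08, IL4R at -0.83, PTGDR at -1.56 and PTGS2 at -1.67 passed as lower (adjusted p = 0.00488, 0.00488, 0.00225 and 0.00491). FCER1G and HRH1 did not pass. Apart from FCER1G, these genes were named for the smallest p between the dogs in SVF, and this fit uses those arrays again. Their calls are therefore no separate support and cannot be set against the share of all features.

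In the PRP comparison the same lists gave 0 calls over all features. Of 14 other mast cell genes 5 were above 0 (median -0.13) and of 18 signalling genes 9 (median -0.0049). The first list had its smallest p for SRGN, the granule proteoglycan serglycin that other leukocytes also make, at 0.48 ± 0.14 (SE, limma, adjusted p = 0.438). The signalling list had it for GRAP2, at 0.50 ± 0.13 (SE, limma, adjusted p = 0.395). CRLF2, a chain of the receptor for the cytokine TSLP, differed by 1.28 ± 0.40, PTGS2 by 0.76 ± 0.26 and HRH2, another histamine receptor, by -0.49 ± 0.16 (adjusted p = 0.46, 0.472 and 0.466). LAPTM5 of the pan-leukocyte list differed by 0.69 ± 0.24 (adjusted p = 0.479). With replicate 1 given first, CRLF2 was at 7.63 and 6.94 in SVF of dog 2 and at 8.26 and 9.37 after PRP. In dog 3 it was at 9.21 and 9.02 in SVF and at 9.31 and 10.97 after PRP, so the wider gaps lay in replicate 2. With single arrays left out the CRLF2 difference ran from 0.86 to 1.69 and that of LAPTM5 from 0.47 to 0.90.

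**Figure D4:**
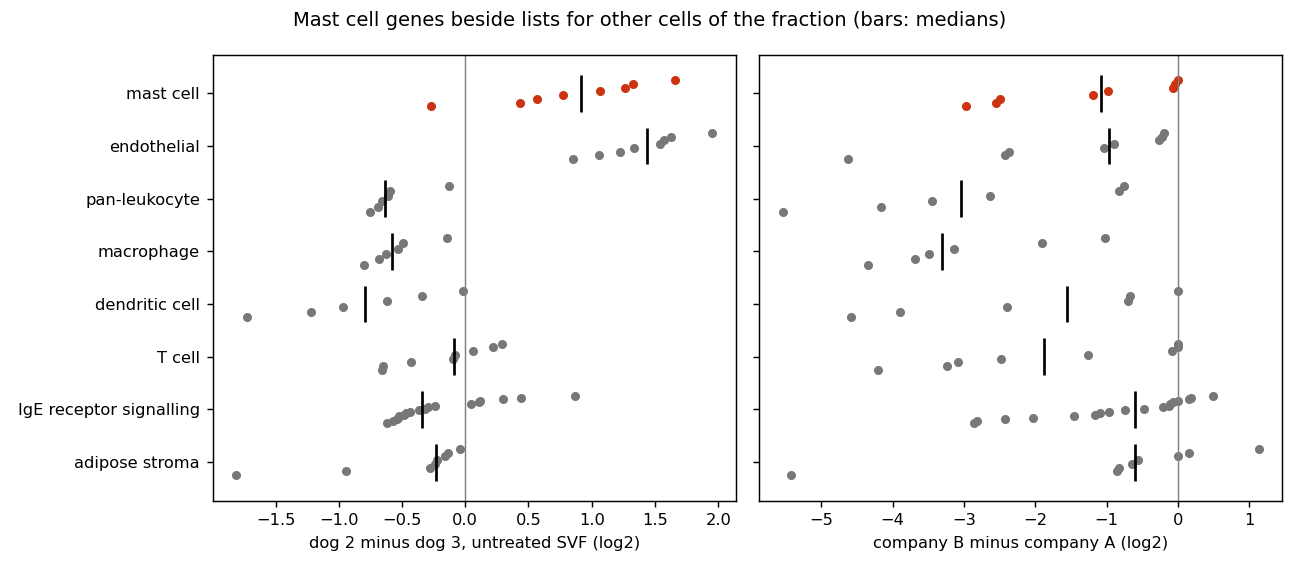
Fitted difference between dog 2 and dog 3 in untreated SVF (left, log2) and difference between companies B and A (right, log2) for each gene of 8 lists, with bars at the medians. On the left the mast cell and endothelial genes lie mostly above 0 and the leukocyte, macrophage and dendritic cell genes at or below it. On the right nearly all of these genes lie at or below 0.

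HPGDS did not follow the order of the dogs that the other 7 genes showed. It was at 6.20 and 6.15 in SVF of dog 2, at 7.13 and 6.39 after PRP, at 7.13 and 5.75 in SVF of dog 3, and at 6.51 and 4.98 after PRP, with replicate 1 given first. Replicate 2 was the lower array in all 4 groups, with replicate 2 minus replicate 1 at -0.052, -0.75, -1.37 and -1.53. Fitted over the 4 groups, replicate 2 differed from replicate 1 by -0.92 ± 0.25 for HPGDS, which did not pass (SE, limma, adjusted p = 0.179). For the other 7 genes this difference lay between -0.21 and 0.18. Among the 8 genes 1, HPGDS, had an unadjusted p below 0.05, against 17.5% of all features, and 0 of 8 and 0% of features passed after adjustment. Macrophage and pan-leukocyte genes were also lower in replicate 2, all 6 in each list, with medians of -0.74 and -0.82 beside 0.0016 over all features. So were all 6 dendritic cell genes (median -0.50), 7 of 8 T cell genes (median -0.39) and 15 of 18 IgE receptor signalling genes (median -0.40). The endothelial median was -0.095. The part of these cells in the HPGDS values was not tested.

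Across the 8 arrays the 8 genes were compared with the mean of the other members, after each was centred and scaled. Pearson's r was between 0.91 and 0.96 for 7 genes and 0.36 for HPGDS (8 arrays). The arrays fall into 2 dogs, so these values mostly restate the gap between them. After centring on the 4 group means r fell to between -0.17 for KIT and 0.63 for CMA1. Such a within-group r rests only on the difference between the 2 arrays in each of the 4 groups, so these values are descriptive only. Between single members, HPGDS was most like MS4A2, with r = 0.67 over the 8 arrays and 0.95 within groups, against -0.26 to 0.080 within groups for HPGDS with each other member. Outside the members, the 6 genes with the highest r to the members' mean were HPGD (0.99), FGF13 (0.98), CLU (0.98), NMNAT1 (0.98), KANSL1L (0.98) and MID1 (0.98). Within groups their r lay between 0.26 for MID1 and 0.89 for CLU, which encodes clusterin. Of 15939 other genes 351, or 2.2%, had r above 0.9 over the 8 arrays.

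The companies were compared within their own set, with 1 array each and therefore without a test. Company B lay below both other companies for KIT, FCER1A, CPA3, CMA1, GATA2 and HPGDS, for GATA2 by only -0.043 against company A. It shared its HDC value with company C and its MS4A2 value with both. Such ties were common, with 36.2% of all features identical in B and A and 36.5% in B and C. In company B 4 of 8 genes (CPA3, FCER1A, HPGDS and CMA1) were at least 2-fold below company A, against 8.13% of all features. Against company C 3 of 8 were (CPA3, FCER1A and HPGDS), against 7.07% of features. Between companies C and A 0 of 8 genes reached a 2-fold difference in either direction, against 5.54% of features.

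CPA3 was at 6.50 in company A, 3.53 in company B and 6.14 in company C. It was thus 7.87-fold lower in B than in A by the array values. FCER1A was at 6.44, 3.89 and 6.42 in the same order, 5.84-fold lower in B than in A. HPGDS was at 6.10, 3.60 and 5.51, 5.65-fold lower in B than in A. In company B these 3 genes stood between 3.53 and 3.89, near the lower quartile of the array at 3.57, and signal over background was not measured.

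CMA1 was at 6.28 in company A, 5.08 in company B and 6.05 in company C, a difference of -1.19 between B and A. KIT was at 5.23, 4.26 and 4.77, and its difference of -0.98 fell just short of 2-fold. HDC was at 4.19 in company A and at one identical value, 4.13, in B and C. GATA2 was at 4.50, 4.46 and 4.87. MS4A2 had the same value, 4.02, on all 3 arrays, as did 29.5% of all features, so it carries no comparison. HDC, GATA2 and MS4A2 lay below the array medians in all 3 companies.

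**Figure D5:**
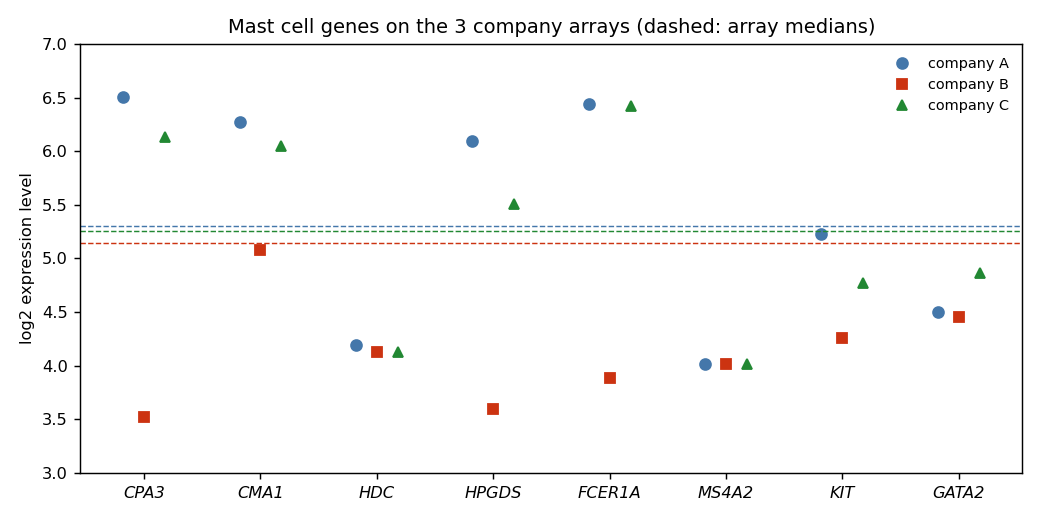
Log2 expression level (vertical axis) of the 8 genes on the arrays of companies A, B and C, with dashed lines at the array medians. Company B lies lowest for CPA3, CMA1, HPGDS, FCER1A and KIT, and the 3 companies lie close together for HDC and MS4A2. Levels of different genes are not comparable with each other.

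Company B was low in other immune lists and in the endothelial list too. Of 6 macrophage genes all 6 were at least 2-fold below company A (median -3.31), as were 4 of 6 pan-leukocyte genes (median -3.05), 5 of 8 T cell genes (median -1.87) and 4 of 8 endothelial genes (median -0.97). Of 8 adipose stroma genes 1 was (median -0.60). Over all features 8.13% were at least 2-fold lower in B than in A. The median over the 8 mast cell genes was -1.08, and over all features it was 0. Company B was also lowest for SRGN, at 9.79 in company A, 6.29 in B and 10.26 in C, and for FCER1G, at 10.46, 8.03 and 11.52, but for both genes company C stood above company A. KITLG went the other way, at 6.71 in company A, 7.85 in B and 6.39 in C. Company, digest, freezing and thawing cannot be told apart in this design.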

How the data were processed

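Per the labels' protocols, 6 µg of RNA per sample was biotin-labelled for Affymetrix arrays. The values deposited by the authors are on a log2 scale, judged from their range. Per the submitters' processing notes Partek was used. For summarization, normalization and genome build, the sources used here name no method. The 3 company arrays and the 8 arrays of dogs 2 and 3 have different medians and were taken to have been normalized separately. Of 32391 features 16545 named 1 gene in the platform annotation, 370 several and 15476 none. For all 8 members the gene identifier carries the same symbol in the names of the UU_Cfam_GSD_1.0 assembly. No sequences or coordinates are printed.

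For dogs 2 and 3, limma 3.58.1 (R 4.3.3) estimated 4 group means by lmFit and eBayes with no filter, leaving 4 residual degrees of freedom. Benjamini-Hochberg adjustment ran over all features, with a threshold of 0.05. Contrasts were PRP minus SVF over both dogs and in each dog, its difference between the dogs, and dog 2 minus dog 3 in SVF and in PRP. Replicate 2 minus replicate 1 was fitted as a term beside the group means (3 residual degrees of freedom). Company arrays were compared by differences, counted at 2-fold. Code was tested on simulated data.

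The members and lists were chosen with earlier results of these data known. Named genes were all members, up to 3 genes per list with the smallest p in PRP minus SVF or in dog 2 minus dog 3 in SVF, up to 3 per list from the companies at 2-fold or more, and 6 by likeness. Outside this rule, chosen after their values were seen, stand KITLG in the companies and FCER1G between the dogs. Of 154 list genes other than the members 128 were measured.

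Replicate numbers 1 and 2 recur in every group. Deviations of same-numbered arrays from their group means correlated at 0.395 within dog 2 and 0.241 within dog 3, and at 0.239 to 0.597 across the dogs, over 15947 genes. Arrays of different dogs cannot be pairs, and in the same condition they correlated at 0.513 (SVF) and 0.597 (PRP). These correlations therefore do not show pairing within a dog. The main fit used no pairing, and a fit with same-numbered arrays of a dog as a replicate block was an alternative. Other alternatives covered scaling, a filter on dim features, the variance model, the terms, averaging of features, the fold threshold and leaving out each array.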

Additional observations from a re-analysis of the deposited data

How the results depend on the processing

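Of the comparisons of the 8 genes, PRP minus SVF gave 0 called members under every alternative run, and the median over them stayed between 0.15 and 0.27 with single arrays left out. The replicate block left 0 called features in place of 2 and changed no member's call, while the dim-feature filter, additive terms, condition alone, the replicate number as a term and means per gene left 1 feature each, and leaving out any array left 0. In dog 2 alone the filter, the number term and means per gene called 1 feature in place of 0. Quantile normalization over the 8 arrays called 3 members for dog 2 minus dog 3 in SVF (GATA2 added) and 5 after PRP (GATA2 lost). A variance trend also called 3 in SVF (GATA2 added). For dog 2 minus dog 3 in SVF, 2 members became 4 (KIT and GATA2 added) with quantile normalization over all 11 arrays, the filter or means per gene, 7 with additive terms, and 0 to 1 without single arrays. The 414 features became 731 with the filter, 2375 with additive terms, 652 with the number term and 6 to 385 without single arrays. After PRP the 6 members became 0 to 3 and the 622 features 3 to 620 without single arrays, and 2375 features with additive terms. Between replicate numbers, 0 features became 190 with the filter, 73 with a variance trend and 428 with means per gene. At 1.5-fold, 1 member, HPGDS, differed between companies C and A. Some small differences turned sign: HPGDS for PRP minus SVF was 0.020 after median centring and ran from -0.44 to 0.33 without single arrays, and in dog 3 from -1.46 to 0.066. MS4A2 in dog 3 ran from -0.45 to 0.00052 and GATA2 for PRP minus SVF from -0.093 to 0.12. HPGDS for dog 2 minus dog 3 in SVF was 0.37 with additive terms and ran from -0.95 to 0.42 without single arrays. The likeness of KIT within groups was -0.17. The filter and means per gene test fewer features, and fits without an array rest on 7, where a lone array is taken to vary like the other groups. The cause of the other shifts was not tested. Signal over background was not measured, so a floor under HDC, HPGDS or MS4A2 could not be set.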
